A study of Mus musculus with 5 samples.

Results

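The genes of oxidative phosphorylation were examined in cultured fibroblasts grown from mouse lung, with and without TGF-β1. The members were the protein-coding genes whose symbols begin with Ndufa, Ndufb, Ndufc, Ndufs, Ndufv, Uqcr, Cox4 to Cox8 or Atp5, together with Sdha to Sdhd and the 13 protein genes of the mitochondrial genome, and without Ndufa4l2. This rule gave 106 gene IDs of the 55335 in the deposited table. They comprised 84 IDs for nuclear subunits (36 of complex I, 4 of complex II, 8 of complex III, 19 of complex IV and 17 of complex V), the 13 mitochondrial genes, 8 Ndufaf genes, which encode assembly factors of complex I and not subunits, and Atp5s, a coupling factor of ATP synthase that is not counted among the subunits here. Ndufa4, named for complex I, was counted with complex IV, where its protein resides, as was Cox7a2l, a supercomplex assembly factor.

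Treated cells received TGF-β1, a cytokine that drives fibroblasts towards the matrix-producing myofibroblast state, at 5 ng/mL for 24 h (3 libraries), and control cells received vehicle (2 libraries). The submitters call the replicates independent, but the sources used here give no strain, sex or age of the mice and do not say whether a replicate was a separate animal or a separate dish. The p-values therefore measure how far these 5 libraries spread, which may be technical. PolyA RNA was sequenced, with 39769301 to 43163967 counts per TGF-β1 library and 34283288 and 40245128 counts per control library. Summed levels of 10 fibroblast markers were 53460 to 53910 CPM (counts scaled to library size, here with TMM factors between libraries) with TGF-β1 and 45420 to 46930 CPM in control (5 rose and 5 fell), whereas 10 epithelial markers summed to 5.07 to 5.69 CPM with TGF-β1 and 3.28 to 3.65 CPM in control, with 5 of the 10 at 0 in every library. Markers of other cells moved with treatment. Of 13 mesothelial genes 12 fell and 1 rose, and the list summed to 413.5 to 441 CPM with TGF-β1 and 1748 to 1841 CPM in control. Of 12 tested leukocyte genes 10 fell and 1 rose, with sums of 1719 to 1746 CPM with TGF-β1 and 2688 to 2759 CPM in control. The part of these other cells in the values below was not tested, and in bulk RNA fewer cells of a type and less RNA per cell cannot be told apart.

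In oxidative phosphorylation, complexes I and II pass electrons from NADH and succinate to ubiquinone, complex III passes them on to cytochrome c and complex IV to oxygen, and complex V (ATP synthase) uses the resulting proton gradient to make ATP. Most subunits are encoded in the nucleus and imported, while a small set of core subunits of complexes I, III, IV and V is transcribed inside the mitochondrion from both strands of its circular genome. Several complex IV subunits exist as pairs of isoforms, one broadly expressed and another restricted to muscle, testis or lung.

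With TMM scaling, oxidative phosphorylation genes showed small differences after TGF-β1, mostly increases, and all 39 increases that passed the test were under 1.5-fold. Of 101 members that passed the filter on low counts, 39 rose, 1 fell and 61 did not pass the threshold (adjusted p under 0.05, edgeR's quasi-likelihood test with Benjamini-Hochberg adjustment over the 16380 genes tested). The background over all genes tested was 21.3% higher and 23.2% lower. Members are abundant transcripts, and among the 10928 genes with a mean of at least 5 CPM, 28.4% were higher and 25.3% were lower. The share of nuclear subunits called higher was 38.0% (30 of 79) and 1 of 79 was lower, with a median log2 fold change of 0.12 against 0.00 for all genes tested and 0.03 for the genes of at least 5 CPM. Where a set below is given as having 0 lower, DESeq2 also called 0, and edgeR at an unadjusted p under 0.05 gave 0 unless a count is stated. All 3 TGF-β1 libraries lay above both controls for 49 of the 79 nuclear subunits and below both for 4, where the background was 31.6% higher and 33.0% lower over all genes tested, or 38.3% higher and 33.1% lower from 5 CPM. Relative to the control mean, the median nuclear subunit stood at 0.138, 0.098 and 0.116 (log2) in TGF-β1 replicates 1 to 3, and at −0.027 and 0.027 in the controls.

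These counts depend on how the libraries are put on one scale. The TMM factors were 0.972 to 0.974 with TGF-β1 and 1.04 and 1.05 in control, and scaling by library totals alone shifted the median of all genes by −0.10 (log2). With library totals, 5 nuclear subunits were higher and 7 were lower, with a background of 14.2% higher and 30.0% lower, and the nuclear median was 0.02 against −0.10 for all genes tested. Of the 39 members that rose, 8 were also called higher with library totals. Single libraries also moved the count of nuclear subunits called higher: it was 15 without TGF-β1 replicate 1, 11 without control replicate 1 and 17 without control replicate 2.

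**Figure D1:**
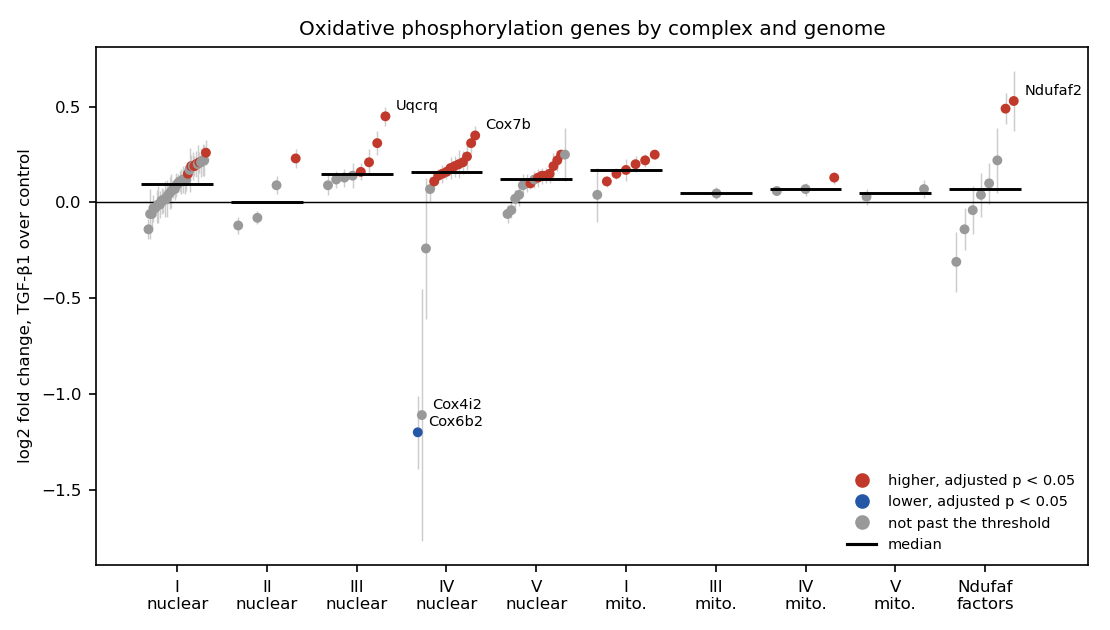
Log2 fold change (TGF-β1 over control, TMM scaling) of each of the 100 tested members in complexes I to V or among the Ndufaf factors, as points with standard errors, by complex and genome (Atp5s is not drawn). Black bars mark medians; the nuclear complex IV points form a tight run of calls from 0.11 to 0.35 with Cox6b2 far below at −1.20.

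**Figure D2:**
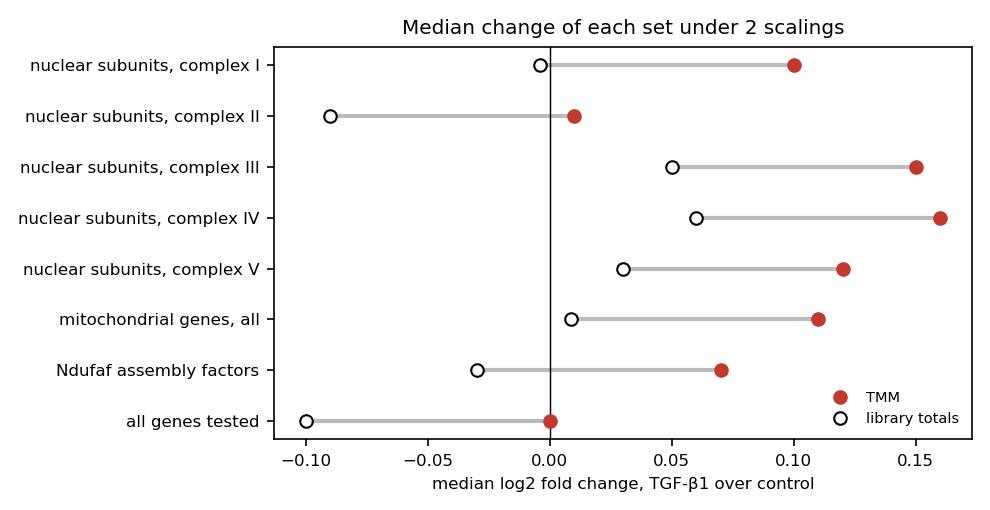
Median log2 fold change (TGF-β1 over control) of each set with TMM scaling (filled) and with library totals (open). All sets shift left by about the 0.10 by which all genes shift, so that complex I sits at 0.10 and at −0.0042, and complex IV at 0.16 and at 0.06.

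Promoters are shown for 5 nuclear members, picked with their values known, because they include clear changes of each sign and because respiratory genes are known for binding sites of nuclear respiratory factor 1 (NRF1) and GABPA (nuclear respiratory factor 2). Each line is the 250 bases before the RefSeq transcription start on GRCm38.p6, read 5′ to 3′ on the gene's strand, with matches to the NRF1 motif GCGCANGCG or the GABPA motif CCGGAAGT, searched on both strands, in capitals (overlapping matches count once). Ndufs5 is at chr4:123718187-123718436 (minus strand), Cox6a1 at chr5:115348959-115349208 (minus), Uqcrh at chr4:116075071-116075320 (minus), Cox7b at chrX:106015450-106015699 (plus) and Cox6b2 at chr7:4753095-4753344 (minus).
Ndufs5: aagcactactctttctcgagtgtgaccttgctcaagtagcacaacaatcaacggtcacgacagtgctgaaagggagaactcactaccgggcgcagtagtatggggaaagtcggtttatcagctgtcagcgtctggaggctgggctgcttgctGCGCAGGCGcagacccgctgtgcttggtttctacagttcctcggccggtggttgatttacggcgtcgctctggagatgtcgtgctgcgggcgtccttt
Cox6a1: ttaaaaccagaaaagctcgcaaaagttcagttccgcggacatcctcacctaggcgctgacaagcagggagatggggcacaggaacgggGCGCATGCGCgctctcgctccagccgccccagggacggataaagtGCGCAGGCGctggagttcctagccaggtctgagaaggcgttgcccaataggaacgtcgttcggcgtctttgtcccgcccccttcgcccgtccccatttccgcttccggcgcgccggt
Uqcrh: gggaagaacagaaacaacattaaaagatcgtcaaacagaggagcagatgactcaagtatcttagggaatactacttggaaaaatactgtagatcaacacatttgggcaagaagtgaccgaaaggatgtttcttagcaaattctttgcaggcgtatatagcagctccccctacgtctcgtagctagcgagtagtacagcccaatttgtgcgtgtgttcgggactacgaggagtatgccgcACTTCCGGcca
Cox7b: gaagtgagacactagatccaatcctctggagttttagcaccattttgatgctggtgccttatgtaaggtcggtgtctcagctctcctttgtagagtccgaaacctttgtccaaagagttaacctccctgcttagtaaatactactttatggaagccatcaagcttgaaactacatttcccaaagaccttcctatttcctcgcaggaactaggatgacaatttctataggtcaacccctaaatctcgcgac
Cox6b2: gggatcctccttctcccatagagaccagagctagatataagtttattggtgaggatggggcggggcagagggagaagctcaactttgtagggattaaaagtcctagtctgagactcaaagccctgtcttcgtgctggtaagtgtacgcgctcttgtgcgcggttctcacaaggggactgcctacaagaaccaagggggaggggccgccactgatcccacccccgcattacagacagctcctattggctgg
The NRF1 match of Ndufs5 began 98 bases before the start, those of Cox6a1 162 and 117 bases before it, and the GABPA match of Uqcrh 11 bases before it, where it reads as the reverse complement. No match lay in the windows of Cox7b and Cox6b2. Over windows from 250 bases before to 50 bases after the start, available for 76 of the 92 nuclear symbols, the NRF1 motif was found in 22 members (28.9%), against 7.03% of all 27025 genes with a window and 14.3% of the 11259 of them that were tested here. The GABPA motif was found in 6.58% of the nuclear members and 8.53% of the genes tested, and the YY1 motif AAGATGGCG in 10.5% and 3.30%. The NRF1 motif was present in 7 of the 24 members with a window that rose (29.2%) and in 15 of the 48 that were tested and not called (31.2%). The GABPA motif was present in 12.5% of those that rose and 4.17% of those not called, and the YY1 motif in 4.17% and 14.6%. These shares rest on a few genes and were not tested against each other. A match describes these letters and not an occupied site.

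Complex I, the NADH dehydrogenase that receives electrons from NADH, had few individual calls. All TGF-β1 libraries lay above both controls for 19 of its 36 nuclear subunits and below both for 1. The background from 5 CPM was 38.3% higher and 33.1% lower. Of the 36, 6 rose (16.7%) and 0 fell (1 lower at an unadjusted p under 0.05), with a median log2 fold change of 0.10. The background of calls was 21.3% higher and 23.2% lower, or 28.4% and 25.3% from 5 CPM. The share that rose lies below both, as does the share that fell. The count of 6 was 0 with library totals (where 2 were lower), 3 without TGF-β1 replicate 1 and 10 without TGF-β1 replicate 3. Among the 7 nuclear core subunits, which carry the flavin and the iron-sulfur clusters, 2 rose: Ndufv1 and Ndufs1.

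Ndufv1, the flavin-bearing subunit that binds NADH, had 52.9, 48.1 and 52.0 CPM with TGF-β1, against 43.8 and 45.4 CPM in control. All TGF-β1 libraries were above both controls, with a log2 fold change of 0.19 (SE 0.0576, adjusted p = 0.0216). Ndufs1, which holds iron-sulfur clusters of the electron input arm, had 77.7, 73.1 and 72.7 CPM with TGF-β1 and 65.0 and 69.2 CPM in control (log2 fold change 0.15, adjusted p = 0.0410). The groups did not overlap, but the call was absent in 7 of the 14 alternative settings, and an exon of it overlaps Eef1b2 on the opposite strand, which leaves its level uncertain, as the sources used here do not give the strand setting of the counting. Ndufs3, Ndufs7, Ndufs8 and Ndufv2 did not pass: Ndufs3 had a log2 fold change of 0.12, Ndufs7 of 0.12, Ndufs8 of 0.09 and Ndufv2 of 0.04.

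Of the 29 accessory subunits of complex I, 4 rose. Ndufs5, a small subunit facing the intermembrane space, whose promoter is shown above, had 26.1, 27.1 and 25.9 CPM with TGF-β1 and 21.4 and 22.4 CPM in control. It was higher in every TGF-β1 library than in either control (log2 fold change 0.26, SE 0.0655, adjusted p = 0.00929). Ndufab1, the mitochondrial acyl carrier protein, which also serves in fatty acid and lipoic acid synthesis, had 57.0, 54.4 and 54.5 CPM with TGF-β1 and 49.8 and 45.7 CPM in control (log2 fold change 0.21, adjusted p = 0.0118). Ndufa2 reached a log2 fold change of 0.20 (adjusted p = 0.0363), with an overlap of Tmco6 on the opposite strand. The fourth, Ndufb8, is an accessory subunit named after its values were seen (log2 fold change 0.19, adjusted p = 0.0154). At the other end, Ndufv3, named for the same reason, had 39.7, 41.1 and 39.6 CPM with TGF-β1 against 42.95 and 45.6 CPM in control, a difference without overlap that did not pass (log2 fold change −0.14, adjusted p = 0.0551) and that passed with library totals (−0.24).

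Among the 8 Ndufaf assembly factors, 2 rose (25.0%), 0 fell and the median was 0.07. The background over all genes tested was 21.3% higher and 23.2% lower, so the share that rose lies near it. Ndufaf4, which acts early in the assembly of complex I, had 17.5, 17.6 and 16.9 CPM with TGF-β1, against 12.6 and 12.1 CPM in control. The groups were well apart (log2 fold change 0.49, SE 0.0817, adjusted p = 0.00107). The gene passed the threshold in all 15 settings. Ndufaf2, a chaperone found on late assembly intermediates, had 10.0, 9.38 and 9.59 CPM with TGF-β1 and 5.39 and 7.90 CPM in control (log2 fold change 0.53, SE 0.159, adjusted p = 0.0217). Its controls differed from each other more than its TGF-β1 libraries did, and without control replicate 1 the log2 fold change was 0.29 with an adjusted p of 0.143 (0.0521 without TGF-β1 replicate 1, and 0.00416 to 0.143 over the 15 settings). Without control replicate 2 it was 0.84. Stretches of Ndufaf2 match 11 other genes at 95% identity or more, which together hold 1.19 times its count, so its level is uncertain. The count of Ndufaf genes called higher was 1 without control replicate 1 and 1 without TGF-β1 replicate 1.

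Complex II, succinate dehydrogenase, is shared with the citric acid cycle and encoded wholly in the nucleus, and its 4 genes split. Sdhb, the iron-sulfur subunit, rose: it had 57.8, 60.1 and 57.6 CPM with TGF-β1, against 50.8 and 49.0 CPM in control (log2 fold change 0.23, SE 0.0489, adjusted p = 0.00419). Sdhc, a membrane anchor, had 78.1, 75.0 and 76.9 CPM with TGF-β1 and 85.0 and 81.6 CPM in control (log2 fold change −0.12, adjusted p = 0.0546). Sdha, the flavoprotein that oxidises succinate, had 150, 152 and 155 CPM with TGF-β1 and 160.5 and 160.2 CPM in control (log2 fold change −0.08, adjusted p = 0.107). For both of these the TGF-β1 libraries were below both controls without passing the threshold, whereas Sdhd, the other anchor, had a log2 fold change of 0.09 (adjusted p = 0.152). With library totals Sdha (−0.17) and Sdhc (−0.22) were called lower and Sdhb (0.13) was not called, with adjusted p-values for Sdhb of 0.00076 to 0.0565 over the 15 settings. Sdhc was also called lower without TGF-β1 replicate 3 (adjusted p = 0.0486; 0.00284 to 0.293 over the 15 settings).

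Complex III, the cytochrome bc1 complex, had 4 of the 8 nuclear subunits in the rule higher and 0 lower. Their median log2 fold change was 0.15, and all 8 values were above 0, beside 8191 of the 16380 genes tested. The background of calls was 21.3% higher and 23.2% lower, or 28.4% and 25.3% from 5 CPM. With library totals 2 of the 8 were called higher, 7 were above 0 and the median was 0.05. The symbol rule does not reach Cyc1, which encodes cytochrome c1 of this complex and is named after its values were seen. Cyc1 rose as well (log2 fold change 0.20, adjusted p = 0.0178), without a call with library totals (0.10). Uqcrq, a small subunit that sits next to cytochrome b, had 73.3, 71.3 and 72.1 CPM with TGF-β1, against 51.3 and 54.4 CPM in control. Its gene lies on chromosome 11 from 53427922 to 53430831 on the minus strand. The groups were wide apart (72.2 ± 0.973 CPM with TGF-β1, n = 3, and 52.8 ± 2.15 CPM in control, n = 2; SD). The log2 fold change of 0.45 (SE 0.048, 1.37-fold) was the highest of any nuclear subunit, at an adjusted p of 5.86e-05.

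Uqcrh, the hinge subunit between cytochrome c1 and cytochrome c, had 60.5, 53.6 and 55.1 CPM with TGF-β1 and 46.1 and 44.9 CPM in control (log2 fold change 0.31, adjusted p = 0.00288). Both Uqcrq and Uqcrh passed in all 15 settings. Uqcr11 (log2 fold change 0.21, adjusted p = 0.0344) and Uqcrc2, a core subunit (0.16, adjusted p = 0.0139), also rose, with groups that did not overlap. Without control replicate 1, Uqcr11 was at 0.12 and not called (adjusted p = 0.253, with 0.0179 to 0.253 over the 15 settings). The catalytic mitochondrial subunit of the complex, mt-Cytb, did not pass (0.05, adjusted p = 0.233).

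Complex IV, cytochrome c oxidase, had the highest share of calls among the nuclear subunits with TMM scaling. Of its 15 tested nuclear subunits 11 rose (73.3%, against a background of 21.3%, or 28.4% from 5 CPM). Only 1 fell (6.67%, against 23.2%, or 25.3% from 5 CPM), and the median log2 fold change was 0.16. Of the 12 with a mean of at least 5 CPM, the broadly expressed isoforms, 11 rose, and the exception, named after its values were seen, was Ndufa4 (0.07, adjusted p = 0.439). The count of 11 was 4 without TGF-β1 replicate 1, 2 without control replicate 1 and 7 without control replicate 2. With library totals 2 of the 15 were higher and 1 was lower, with a median of 0.06. Whether the share of 73.3% differs from that of the other complexes was not tested.

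Cox7b, a small subunit known from human disease to be needed for the enzyme (chromosome X, 106015700 to 106022450, plus strand), had 55.9, 54.0 and 53.8 CPM with TGF-β1, against 42.8 and 42.9 CPM in control. Within each group the values were close and the groups were far apart (54.6 ± 1.15 CPM with TGF-β1, n = 3, and 42.9 ± 0.137 CPM in control, n = 2; SD; log2 fold change 0.35, SE 0.0486, adjusted p = 0.000337). Cox5a, which binds the matrix face of the enzyme and is a site of its regulation, had 76.4, 71.4 and 77.4 CPM with TGF-β1 and 59.5 and 61.7 CPM in control (log2 fold change 0.31, adjusted p = 0.00108). These 2 genes were called higher in all 15 settings. Cox7c (0.24, adjusted p = 0.0190), Cox7a2 (0.21, adjusted p = 0.0183) and Cox6b1 (0.18, adjusted p = 0.0252) had smaller increases. So did Cox4i1 (0.16, adjusted p = 0.00829), Cox6a1 (0.15, adjusted p = 0.0308), the supercomplex factor Cox7a2l (0.14, adjusted p = 0.0133) and Cox8a (0.11, adjusted p = 0.0489). Cox8a was called in 7 of the 15 settings and was at 0.01 with library totals (adjusted p = 0.882). Cox4i1 overlaps Emc8 on the opposite strand, and its level is uncertain for that reason, and Cox6a1 was at 0.08 without control replicate 1 (adjusted p = 0.255, with 0.0115 to 0.477 over the 15 settings).

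The tissue-restricted isoforms of complex IV were scarce, and of the 3 that were tested 1 fell in the fit of all 5 libraries. Cox6b2, the testis isoform of the subunit that bridges the dimer of the enzyme, was the 1 member called lower. It had 2.59, 1.81 and 2.43 CPM with TGF-β1, against 5.53 and 4.90 CPM in control. Every TGF-β1 library was below both controls (2.28 ± 0.411 CPM with TGF-β1, n = 3, and 5.22 ± 0.449 CPM in control, n = 2; SD), with a log2 fold change of −1.20 (SE 0.192, adjusted p = 0.000801), and the call held in all 15 settings. Per kilobase of transcript, its level was 3.89 CPM with TGF-β1 and 8.92 CPM in control, beside 117 CPM with TGF-β1 and 104 CPM in control for Cox6b1, the ubiquitous partner.

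Cox4i2, the isoform known from lung and responsive to low oxygen, had 0.0994, 0.405 and 0.103 CPM with TGF-β1 and 0.337 and 0.547 CPM in control (log2 fold change −1.11, SE 0.66, adjusted p = 0.209). Its groups overlapped, with TGF-β1 replicate 2 between the controls, and without that replicate the gene was at −2.10 and called lower (adjusted p = 0.0256, with 0.0256 to 0.63 over the 15 settings). It stood at a level per kilobase of 0.276 CPM with TGF-β1 and 0.603 CPM in control, beside 203 CPM and 182 CPM for Cox4i1. The muscle isoform Cox6a2 had 0.497, 0.571 and 0.543 CPM with TGF-β1 and 0.702 and 0.571 CPM in control (log2 fold change −0.24, adjusted p = 0.637). Cox7a1, another muscle isoform, did not pass the filter, with 6, 6 and 8 counts with TGF-β1 and 13 and 8 counts in control. Cox7b2 and Cox8c, testis isoforms, and Cox8b, a muscle isoform, had 0 counts in every library, as did a second gene ID that carries the symbol Atp5o.

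**Figure D3:**
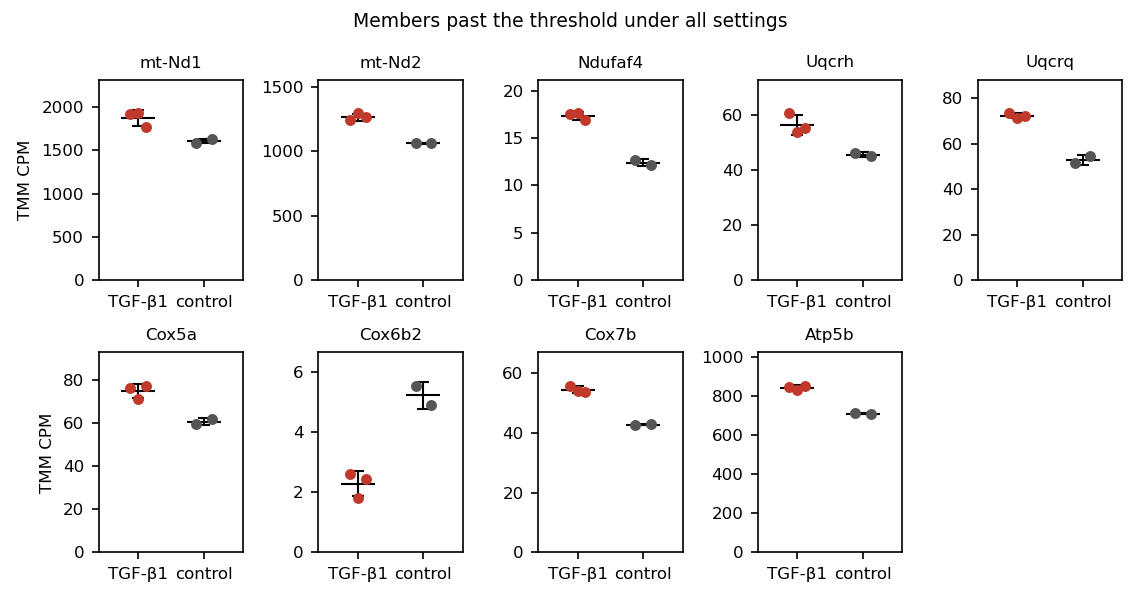
TMM-scaled CPM in each library (points), with mean and SD, for the 9 members past the threshold in all 15 settings, TGF-β1 (n = 3) left of control (n = 2). In 8 of them all TGF-β1 libraries lie above both controls, and in Cox6b2 they lie at 1.81 to 2.59 CPM below 4.90 and 5.53 CPM.

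Complex V, the ATP synthase, had 8 of 16 tested nuclear subunits higher and 0 lower, with a median log2 fold change of 0.12. That count was 4 without either TGF-β1 replicate 1 or replicate 2, and 3 without either control. The background of calls was 21.3% higher and 23.2% lower, or 28.4% and 25.3% from 5 CPM. With library totals 1 of the 16 was higher and 2 were lower, with a median of 0.03. Atp5b, the catalytic beta subunit, was the most abundant nuclear member per kilobase, at 440 CPM with TGF-β1 and 371 CPM in control. It had 845, 830 and 854 CPM with TGF-β1, against 712 and 709 CPM in control. The groups differed by far more than their spread (log2 fold change 0.25, SE 0.0232, adjusted p = 2.54e-05). This call held in all 15 settings. Its partner in the catalytic hexamer, Atp5a1, the alpha subunit (named after its values were seen), rose less in the same fit (0.10, adjusted p = 0.0164; no call with library totals, where it was 0.00).

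Atp5g1, Atp5g2 and Atp5g3 encode the same mature c subunit, which forms the rotating ring of the enzyme, with different import sequences. Atp5g1 had 61.9, 58.0 and 57.8 CPM with TGF-β1 and 49.4 and 52.4 CPM in control (log2 fold change 0.22, adjusted p = 0.00925). Atp5g3 had 118, 111 and 115 CPM with TGF-β1 and 103.5 and 104.5 CPM in control (0.14, adjusted p = 0.0203). Both rose, whereas Atp5g2 had 66.9, 63.2 and 65.1 CPM with TGF-β1 and 66.7 and 69.3 CPM in control, overlapped between groups and did not pass (−0.06, adjusted p = 0.319). Atp5g1 shares 99.8% identity over 411 bases with Gm10039, which holds 0.153 of its count, so its level is uncertain. Per kilobase, Atp5g3 was the most abundant of them at 159 CPM with TGF-β1 and 144 CPM in control. The remaining leading members were Atp5mpl (0.19, adjusted p = 0.0412, called in 5 of the 15 settings) and Atp5l, subunit g of the membrane part (0.15, adjusted p = 0.0324). Stretches of Atp5l match 42 other genes at 95% identity or more over at least 150 bases, and these together hold 18.9 times its count, so its level is uncertain too.

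The 13 genes of the mitochondrial genome are transcribed as long precursors and cut at the transfer RNAs between them, and 12 of them lie on one strand with mt-Nd6 on the other. Together they held 2.11% to 2.25% of the counts of a library with TGF-β1 and 2.18% and 2.19% in control, beside 0.525% to 0.535% with TGF-β1 and 0.514% and 0.525% in control for the nuclear subunits. Of the 13, 7 rose and 0 fell (53.8% higher), with a median log2 fold change of 0.11. The background was 21.3% higher and 23.2% lower, or 28.4% and 25.3% from 5 CPM. The calls were uneven: 6 of the 7 complex I genes rose, against 1 of 3 in complex IV (mt-Co2) and 0 of 3 in complexes III and V (0 also at an unadjusted p under 0.05 and by DESeq2). With library totals 2 of the 7 complex I genes were called higher. Whether the complexes differ was not tested.

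mt-Nd1, a membrane core subunit of complex I next to the ubiquinone site (chromosome M, 2751 to 3707), had 1917, 1926 and 1771 CPM with TGF-β1, against 1589 and 1625 CPM in control (log2 fold change 0.22, SE 0.0351, adjusted p = 0.00077). mt-Nd2, a neighbouring proton-pumping subunit (3914 to 4951), had 1239, 1294 and 1263 CPM with TGF-β1 and 1061 and 1065 CPM in control (0.25, SE 0.0238, adjusted p = 2.62e-05). In both, all TGF-β1 libraries were above both controls, and both calls held in all 15 settings. They are the first 2 protein genes after the ribosomal RNA genes. mt-Nd6, on the opposite strand, had 110, 113 and 108 CPM with TGF-β1 and 94.6 and 97.4 CPM in control (0.20, adjusted p = 0.0036), and mt-Nd5 had 2168, 2286 and 2178 CPM with TGF-β1 and 2012 and 1982 CPM in control (0.15, adjusted p = 0.00134). Each of these missed the threshold in 1 setting, library totals, and mt-Nd6 shares 14 bases of its end with mt-Nd5 on the other strand.

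Smaller increases were called for mt-Nd4l (0.17, adjusted p = 0.0354), mt-Nd4 (0.11, adjusted p = 0.0124) and mt-Co2 (0.13, adjusted p = 0.00679). mt-Co1, the catalytic subunit of complex IV, was the most abundant member at 5440 CPM per kilobase with TGF-β1 and 5230 CPM per kilobase in control. It had 8421, 8626 and 8162 CPM with TGF-β1 and 8121 and 8050 CPM in control, without overlap, and missed the threshold (0.06, adjusted p = 0.0645). mt-Co3 (0.07), mt-Atp8 (0.07), mt-Atp6 (0.03) and mt-Nd3 (0.04) did not pass, and their groups overlapped. With library totals 2 of the 13 were called higher and the log2 fold changes of 6 turned below 0 (mt-Co1, mt-Co3, mt-Cytb, mt-Nd3, mt-Atp6 and mt-Atp8), all of them uncalled under both scalings.

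**Figure D4:**
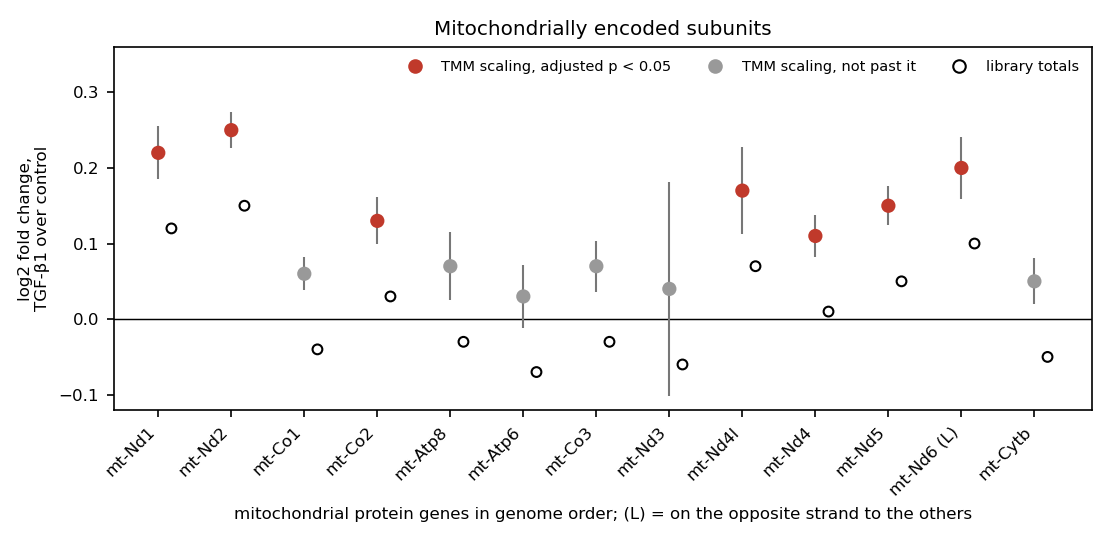
Log2 fold change (TGF-β1 over control) of the 13 mitochondrial protein genes in genome order, with TMM scaling (filled, with standard errors; red past the threshold) and with library totals (open). mt-Nd1 at 0.22 and mt-Nd2 at 0.25 stand highest, and mt-Nd3 has the widest error, 0.142.

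TGF-β1 replicate 3 was the lowest of its group for 11 of the 13 mitochondrial genes, all but mt-Nd2 and mt-Nd5. mt-Nd3 had 70.2, 70.6 and 48.1 CPM with TGF-β1 and 59.0 and 63.3 CPM in control, so replicate 3 lay below both controls and the other TGF-β1 libraries above them, and its log2 fold change without replicate 3 was 0.20. Relative to the control mean, the median mitochondrial gene was at 0.119, 0.161 and 0.051 (log2) in TGF-β1 replicates 1 to 3. Without replicate 3 all 13 genes were called higher, with a median log2 fold change of 0.16. The summed level of the 13 genes was 22504, 23102 and 21659 CPM with TGF-β1 and 20955 and 20991 CPM in control, 6.91% higher. That of the tested nuclear subunits was 5508, 5390 and 5455 CPM with TGF-β1 and 4948 and 5024 CPM in control, 9.33% higher. These sums carry the TMM factors. As shares of all counts, the 13 genes held 2.19%, 2.25% and 2.11% with TGF-β1 and 2.18% and 2.19% in control. The nuclear subunits held 0.535%, 0.525% and 0.531% with TGF-β1 and 0.514% and 0.525% in control. The log2 ratio of the mitochondrial to the nuclear sum was 2.03, 2.10 and 1.99 with TGF-β1 and 2.08 and 2.06 in control. The ratio overlapped between groups, and the difference of −0.033 was smaller than its SD of 0.0557 among the TGF-β1 libraries. Without the most abundant gene of each genome the difference was 0.013, so its sign is not settled.

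The mitochondrial values carry limits of counting. mt-Atp8 and mt-Atp6, subunits of complex V, share 43 bases of one transcript, chrM:7927-7969 of GRCm38 on the plus strand, shown here because a read inside it cannot be assigned to one gene alone. Capitals mark the start codon of mt-Atp6 and the stop codon of mt-Atp8.
mt-Atp8 and mt-Atp6 overlap: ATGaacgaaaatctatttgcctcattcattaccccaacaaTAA
Copies of mitochondrial sequence on chromosome 1 were listed beside 7 of the genes. Gm28661 matched mt-Co2 over 681 bases at 100% identity and its count was 1.00 times that of mt-Co2 in every library, and the copies of mt-Co3, mt-Nd4l, mt-Nd3 and mt-Atp6 held 0.98 to 1.05 of the count of their gene. The copy of mt-Nd4 held 0.43 to 0.446, and that of mt-Co1 0.0955 to 0.11. The levels of these 7 genes are therefore uncertain, while mt-Nd1, mt-Nd2, mt-Nd5 and mt-Cytb had no copy counted at over 0.1 of their level. Among the nuclear members, Ndufb4 (named after its values were seen) shares 390 identical bases with Ndufb4c, which holds 0.737 of its count. In all, 13 members had genes with such matching stretches that together held over 0.1 of their count, and 22 members, mt-Nd6 and Ndufs1 among them, share exonic bases with a different gene that had more than 0.1 of their level.

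Genes that work beside the complexes gave small and mixed counts. The background for these lists and those below was 21.3% higher and 23.2% lower over all genes tested. The list of carriers held electron carriers and linked enzymes, uncoupling proteins, ADP/ATP and phosphate carriers, outer-membrane pores and Cyc1 of complex III. Of its 15 tested genes, 6 rose and 3 fell (median log2 fold change 0.05). Most of those that rose were ADP/ATP or phosphate carriers or pores. Cycs, cytochrome c itself, had 70.8, 75.5 and 74.3 CPM with TGF-β1 and 53.7 and 52.3 CPM in control (log2 fold change 0.47, adjusted p = 4.96e-05), and Slc25a5, an ADP/ATP carrier, rose by a log2 fold change of 0.30. Sqor, which passes electrons from sulfide to ubiquinone, fell (−0.28). Of 13 tested genes of ubiquinone synthesis, 2 rose (15.4%), Coq10b (0.56) and Coq8b (0.35), and 2 fell (15.4%), among them Coq10a (−0.35).

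Assembly factors outside the Ndufaf names also split. Of 12 further complex I factors, 1 rose (8.33%) and 1 fell (8.33%). Timmdc1 rose (0.62, adjusted p = 0.00015) and Tmem126b fell (−0.44, adjusted p = 0.00108), and both act in building the membrane arm. Of 4 complex II factors 0 were called in either direction by edgeR's test, 0 at an unadjusted p under 0.05 and 0 by DESeq2, and Sdhaf2 was the most abundant (0.11, adjusted p = 0.117). Among 6 complex III factors 0 rose (2 at an unadjusted p under 0.05, 0 by DESeq2) and 1 fell (16.7%), Uqcc3 (−0.45, adjusted p = 0.0149). Among 24 complex IV factors 3 rose (12.5%) and 1 fell (4.17%). Those that rose were Cox17 (0.54), Sco2 (0.52) and Cox11 (0.35), which deliver copper to the enzyme. Among 6 complex V factors 1 rose (16.7%), Tmem70 (0.39, adjusted p = 0.00122).

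Of 20 genes of mitochondrial RNA processing and stability, 9 rose (45%, against a background of 21.3%, or 28.4% among genes from 5 CPM) and 2 fell, with a median of 0.19. Grsf1, a binding protein of mitochondrial RNA granules, had 80.1, 77.9 and 78.2 CPM with TGF-β1 and 60.3 and 56.6 CPM in control (0.43, adjusted p = 7.63e-05). 1110008L16Rik rose by 0.43 and Tbrg4, an RNA-binding protein of the FASTK family, by 0.41 (log2). Of 11 genes of mitochondrial transcription 3 rose (27.3%) and 0 fell: Mrpl12 (0.34), Tfb2m, a promoter-melting factor (0.30), and Mterf3 (0.26). Of 12 genes of mitochondrial DNA maintenance 2 rose (16.7%) and 0 fell, Twnk, the replicative helicase (0.48, adjusted p = 0.0492), and Ssbp1, the single-strand binding protein (0.42). Twnk had 15.1, 16.5 and 22.9 CPM with TGF-β1 and 11.7 and 14.3 CPM in control, and was not called with library totals (adjusted p = 0.108). Of 16 genes of the cristae 5 rose (31.2%) and 0 fell, led by 2410015M20Rik (0.34), Dnajc11 (0.33) and Minos1 (0.31).

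Of 14 tested nuclear regulators of respiratory genes, 3 rose (21.4%) and 4 fell (28.6%), beside a background of 21.3% higher and 23.2% lower. Tfeb, a transcription factor of lysosomal and mitochondrial turnover genes, had 7.09, 8.50 and 6.72 CPM with TGF-β1 and 19.7 and 20.4 CPM in control (−1.43, adjusted p = 7.64e-06). Epas1, which encodes the hypoxia-inducible factor HIF-2α, fell by 1.00 on the log2 scale. Myc, a transcription factor of growth genes, had 60.0, 61.2 and 35.9 CPM with TGF-β1 and 30.4 and 30.6 CPM in control (0.78, adjusted p = 0.00923). For this gene TGF-β1 replicate 3 lay nearest to the controls. Of the remaining marker lists, 10 striated muscle genes summed to 81.5 to 86.0 CPM with TGF-β1 and 11.5 to 12.4 CPM in control, of which 2 rose and 1 fell and Acta1, a skeletal muscle actin, held 76.5 to 81.3 CPM with TGF-β1 and 8.49 to 9.13 CPM in control. No tested endothelial gene was called by edgeR or DESeq2 (0 of 5, and 0 at an unadjusted p under 0.05), and the 8 endothelial genes summed to 5.09 to 5.42 CPM with TGF-β1 and 5.84 to 6.44 CPM in control.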

How the data were processed

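PolyA RNA of 5 libraries was analysed from 1 table in which the authors deposited raw counts for each gene, unscaled. Per the submitters' processing notes, STAR 2.5.3a, StringTie 1.3.1c and the mm10 build were used; per the labels' protocols, the library kit was strand-specific. The counting step is not given in the sources used here, nor are its annotation and strand setting. Columns were assigned by sample title.

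Gene IDs were matched to GENCODE M21 (GRCm38, 1-based coordinates). Genes passing filterByExpr (16380) were scaled by TMM and tested with edgeR 4.0.16 in R 4.3.3: a quasi-likelihood F test on group alone, two-sided, Benjamini-Hochberg adjusted over all genes, threshold 0.05. With 3 against 2 libraries the smallest p of an exact permutation test would be 0.1. The fit was tested on simulated counts. Levels per kilobase use the APPRIS principal transcript. Copies were transcripts at 95% identity or more over at least 150 bases. Promoters come from RefSeq (GRCm38.p6).

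Alternatives were 4 other scalings (median-of-ratios, upper-quartile, library totals, TMM without mitochondrial genes), no filter, over 1 CPM in 2 libraries, DESeq2 1.42.0, limma-voom (limma 3.58.1), the replicate number as a block, and each library left out in turn. The members, the 12 pathway and 6 marker lists and the tests were chosen with earlier results of these data known. Named genes were all mitochondrial genes, succinate dehydrogenase genes, complex I core subunits, isoform families and untested members, up to 4 called members per direction of at least 5 CPM in each complex, and up to 3 called genes per list (or the most abundant). Members outside this rule are marked where their values were in view; scarce isoforms, overlapping genes and copies are named to account for all members. Of 228 list entries 227 were matched. Values of 1 gene that the rule would name are not reported here.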

Additional observations from a re-analysis of the deposited data

How the results depend on the processing

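Direction and call of the named members held for 51 of 51 under TMM without mitochondrial genes. They held for 50 of 51 under DESeq2 and under median-of-ratios scaling, and 49 of 51 under limma-voom. The number was 47 under upper-quartile scaling, 42 with the replicate number as a block, 41 without the low-count filter and 13 with library totals. Library totals gave the most changes: 2325 genes higher in all, nuclear subunits 5 higher and 7 lower (complex I 0 and 2, II 0 and 2, III 2 higher, IV 2 higher, V 1 and 2), mitochondrial genes 2 higher and Ndufaf factors 1 higher, with medians of 0.02 for nuclear subunits, −0.0042, −0.09, 0.05, 0.06 and 0.03 for complexes I to V, 0.0085 for mitochondrial genes and −0.03 for Ndufaf factors. Of the 101 members tested, 57 were above 0 there, against 82 with TMM (complex I 17 and 28 of 36). Among the named members, signs turned there for Ndufs8 (−0.0073), Ndufv2 (−0.05), Sdhd (−0.01), mt-Atp6 (−0.07), mt-Atp8 (−0.03), mt-Co1 (−0.04), mt-Co3 (−0.03), mt-Cytb (−0.05) and mt-Nd3 (−0.06). Upper-quartile scaling gave 3 nuclear subunits lower (1 each in complexes I and II), limma-voom gave 2 lower (1 in complex II), and a filter of over 1 CPM gave 10 complex I subunits higher. Without a filter 7 complex IV and 5 complex V subunits and 1 Ndufaf factor were higher. The cause of these changes was not tested.

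Same-numbered libraries deviated together with correlations of 0.0159 and 0.0161, so the numbers are not shown to pair them. With the replicate number as a block, all 13 mitochondrial genes were higher (median 0.16) and 2 nuclear subunits lower (1 in complex II). TGF-β1 replicate 3 has no control of the same number, so in this fit it adds nothing to the treatment effect. The block is therefore close to leaving that library out, and mt-Nd3 was at 0.20 in both fits.

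With single libraries left out, nuclear subunits were 11 to 34 higher and 1 to 2 lower, complex I 1 to 10 higher, complex II 0 to 1 lower, complex IV 2 to 11 higher and 1 to 2 lower, complex V 3 to 8 higher, mitochondrial genes 5 to 13 higher and Ndufaf factors 1 to 2 higher. Medians ranged over 0.15 to 0.17 in complex III, 0.13 to 0.20 in complex IV and 0.09 to 0.16 in mitochondrial genes, and log2 fold changes over −0.0079 to 0.07 for mt-Atp6 and −0.04 to 0.20 for mt-Nd3. With 1 control left, its variation is taken to equal that of the TGF-β1 libraries. At under 1 CPM, Cox4i2 has an SE of 0.66 and Cox6a2 of 0.367.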
